A study of Arabidopsis thaliana with 12 samples.

Results

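Acyl-CoA-binding proteins were followed across the arrays as a family of 6 Arabidopsis thaliana genes, ACBP1 to ACBP6, chosen by locus. The family was taken up because 1 member, ACBP6, differed between the lines compared here, so the line difference of ACBP6 is described below and not tested, while ACBP1 to ACBP5 belong by their family name. The array reports 1 value per probe set, a group of short probes against 1 transcript. Probe sets that the files pair with exactly 1 locus were found for 5 of the 6 genes, 1 for each, out of 21010 genes with such a probe set and 22746 probe sets measured. The measured members are ACBP1 (AT5G53470), ACBP2 (AT4G27780), ACBP4 (AT3G05420), ACBP5 (AT5G27630) and ACBP6 (AT1G31812). ACBP3 (AT4G24230) has no probe set of its own here, because the files pair its probe set with a further locus, and it was left out.

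The line examined was CCA1-34, an arrhythmic line that overexpresses the clock Myb factor CCA1, and it was set against the wild type Columbia (Col). Whole seedlings of both lines were raised on sucrose medium under short days (8 h of light, 16 h of dark) for 4 days. They then received repeated light of 160 min with 320 min of dark in between. The groups were CCA1-34 early, CCA1-34 late, Col early and Col late, where early seedlings were collected in darkness 280 min after dawn and late ones 1240 min after dawn, in each case 120 min after lights-off. Each group held 3 arrays, from seedlings of 5, 6 and 7 days, which are replicates 1, 2 and 3. According to the design text, CCA1-34 grew at both times, whereas Col grew at the early time alone. CCA1-34 is 1 line, and the labels state neither its promoter nor its insertion site. Every array pooled seedlings of a dish, so that fewer cells of a type and less RNA per cell cannot be told apart, and the labels do not say whether the dishes came from independently sown cultures.

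Acyl-CoA-binding proteins carry activated fatty acids, the acyl-CoA esters, between the plastid, where plants make fatty acids, and the membranes of the endoplasmic reticulum, where they are built into lipids. Arabidopsis has a small cytosolic form, ACBP6, and larger forms that add other domains to the acyl-CoA-binding domain. ACBP1 and ACBP2 are anchored in membranes and hold ankyrin repeats, ACBP3 enters the secretory pathway, and ACBP4 and ACBP5 are cytosolic proteins with kelch motifs. ACBP6 also binds phosphatidylcholine, and its overexpression is known to raise freezing tolerance.

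Levels below are the deposited log2 values, and a difference between groups is a difference of such values, so that 1 stands for a doubling. The medians of the arrays ran from 4.01 to 4.12. The 4 measured shoot photosynthesis markers averaged 11.89 to 12.01 per array in CCA1-34 and 11.78 to 12.13 in Col. The 5 root markers averaged 4.30 to 5.37 in CCA1-34 and 4.36 to 5.63 in Col. The 4 seed markers averaged 4.33 to 6.04 in CCA1-34 and 3.64 to 5.99 in Col, so the ranges of the lines overlapped for all of these lists. Within the times, the median line difference of the seed markers was 1.28 early (3 of 4 above 0) and 0.27 late (2 of 4 above 0), which was not tested as a set. CCA1 itself lay between 8.46 and 10.18 in CCA1-34 and between 2.47 and 6.37 in Col. LHY, its close partner in the clock, lay between 3.25 and 6.33 in CCA1-34 and between 3.87 and 6.74 in Col. The LHY value of 6.33 was that of CCA1-34 early replicate 2, and the other CCA1-34 arrays lay between 3.25 and 3.70, below every Col array. The highest Col value of CCA1 was that of early replicate 3. This array and CCA1-34 early replicate 2 were known beforehand to stand apart in light- and dark-regulated genes, which was not examined again here, and results are also given without them where they change.

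ACBP6 was the member that separated the lines. In CCA1-34 the ACBP6 probe set read 10.94, 11.16 and 10.97 at the early time and 11.05, 10.98 and 10.72 at the late time, in replicates 1, 2 and 3. In Col it read 3.72, 3.85 and 3.74 at the early time and 3.69, 3.48 and 3.44 at the late time. All 6 CCA1-34 arrays were high and all 6 Col arrays low, and a gap of 6.87 lay between the lowest CCA1-34 and the highest Col value.

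Group means were 11.02 ± 0.12 in CCA1-34 early, 10.92 ± 0.17 in CCA1-34 late, 3.77 ± 0.07 in Col early and 3.54 ± 0.14 in Col late (SD, n = 3). CCA1-34 exceeded Col by 7.25 at the early time and by 7.38 at the late time. As ratios these are 152-fold and 166-fold. In this order of the 4 groups, early and late were 0.10 apart in CCA1-34 and 0.23 apart in Col, and neither difference passed the test given with the times.

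The rank of ACBP6 within each array also differed. In CCA1-34, between 99.4% and 99.7% of all probe sets read lower than ACBP6, and in Col between 43.0% and 47.7%. Every Col value lay below its array's median. No detection calls were used here, and the Col readings may be background, which would make the differences lower bounds. Other Col data were not examined, so whether such low readings are typical of the wild type was not tested. The ratios therefore do not tell which line departs from the usual level.

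**Figure D1:**
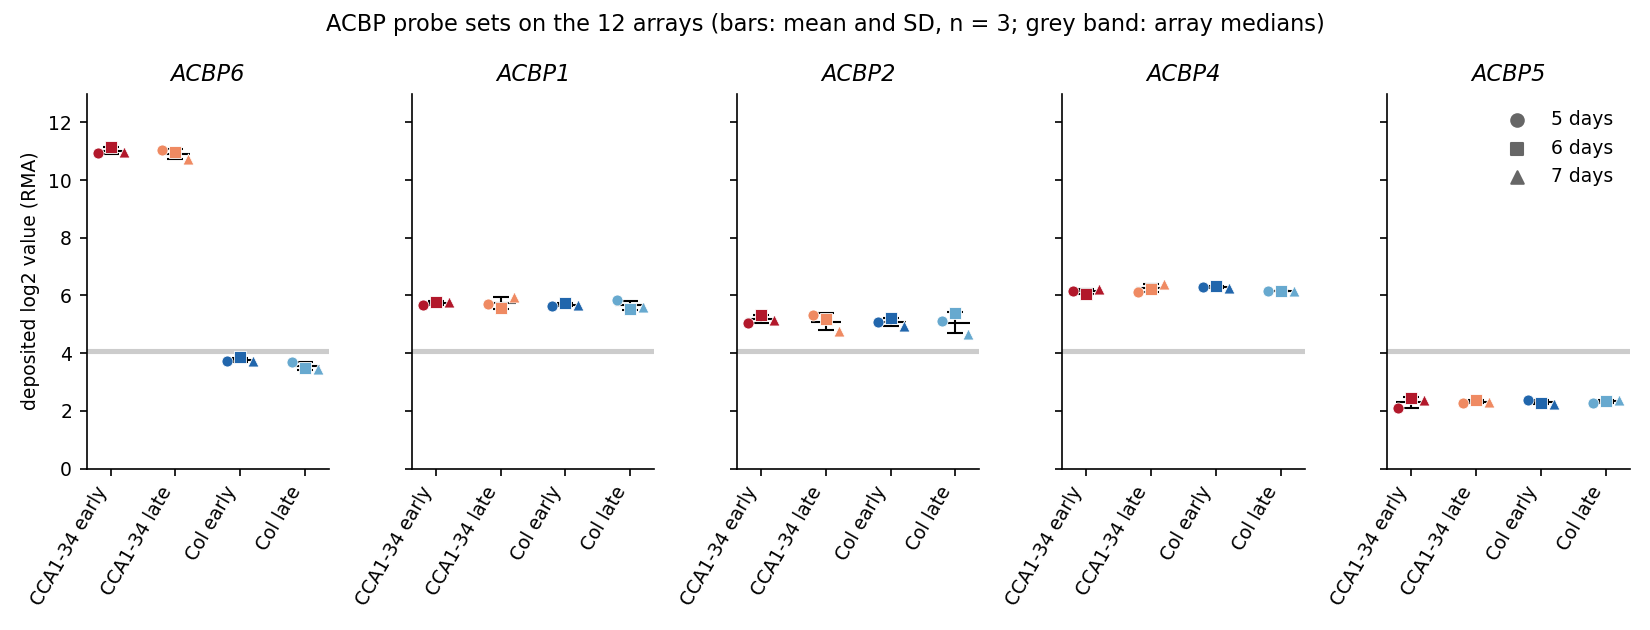
Deposited log2 values of the 5 measured ACBP probe sets on all 12 arrays, by group on the x axis, with symbols for seedling age, black bars for the mean and SD (n = 3) and a grey band for the range of array medians. ACBP6 stands near 11 in both CCA1-34 groups and below 4 in both Col groups, whereas each of the other members keeps 1 level throughout.

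Among all 22746 probe sets, ACBP6 had the largest absolute line difference when both times were averaged, 7.31. CCA1, the overexpressed gene, followed with 5.34, and ACBP6 and CCA1 were the 2 probe sets past a difference of 4. The third among the higher ones was HFR1, a bHLH factor of shade responses, with 2.23. The lowest values were -2.63 for AT1G23130 and -2.26 for AT3G25150. An absolute difference over 2 was reached by 8 probe sets (0.0352%) and one over 1 by 106 (0.466%), and the median absolute difference was 0.078. The CCA1 difference varied more than that of ACBP6, with 4.56 early (SE 0.777, limma adjusted p = 0.627) and 6.12 late (SE 0.777, adjusted p = 0.0588). The late CCA1 difference had an adjusted p of 0.0360 with the replicate block.

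**Figure D2:**
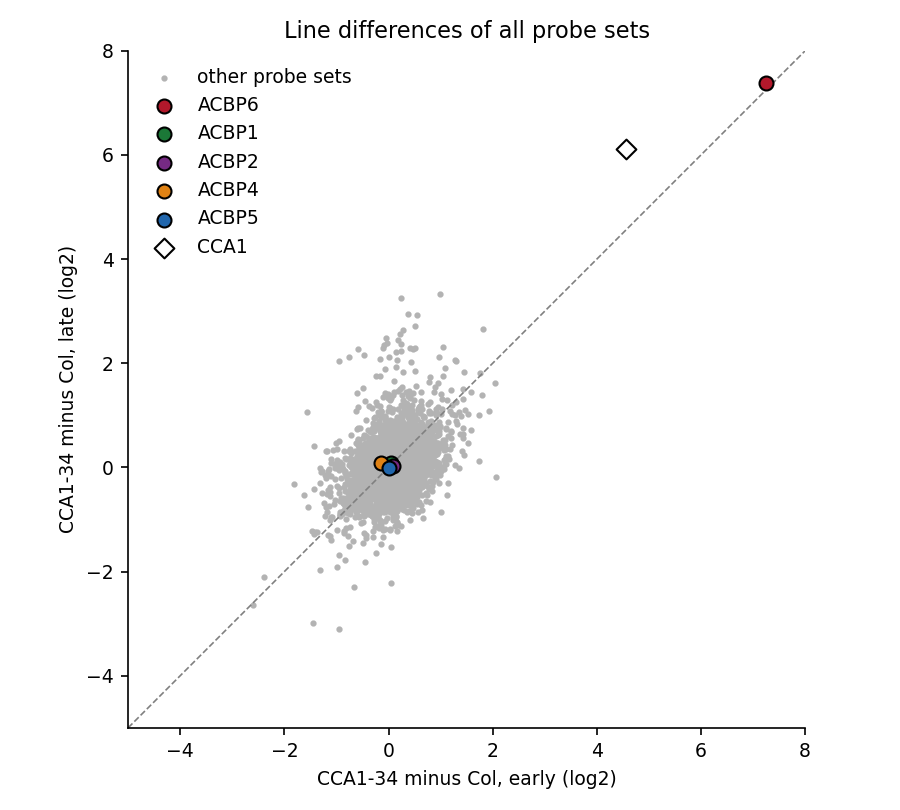
CCA1-34 minus Col in log2 at the early time (x axis) and at the late time (y axis) for every probe set, with the measured ACBP members in colour, CCA1 as a diamond and a dashed line of equal values. ACBP6 lies at 7.25 and 7.38, close to the line of equal values, and ACBP1, ACBP2, ACBP4 and ACBP5 lie between -0.15 and 0.09 on both axes.

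No other measured member showed a difference of this size. ACBP1, a membrane-anchored form known for binding heavy metals, read 5.65, 5.76 and 5.77 in CCA1-34 early and 5.71, 5.56 and 5.95 in CCA1-34 late. In Col it read 5.65, 5.73 and 5.67 early and 5.84, 5.53 and 5.59 late. The arrays of the lines overlapped at both times. The line difference was 0.04 early (SE 0.119, 95% interval -0.22 to 0.30) and 0.09 late (-0.18 to 0.35).

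ACBP2 is the close relative of ACBP1. It read 5.05, 5.32 and 5.13 in CCA1-34 early, against 5.09, 5.22 and 4.93 in Col early. It read 5.32, 5.20 and 4.75 in CCA1-34 late, against 5.11, 5.39 and 4.67 in Col late. The lines overlapped at both times, and the lowest value of each line came from late replicate 3. The line difference was 0.09 early (SE 0.195, 95% interval -0.34 to 0.52) and 0.03 late (-0.40 to 0.47), so ACBP2 had the widest intervals of the family.

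ACBP4 encodes a kelch-motif protein whose transcript is known to follow light and darkness. It read 6.17, 6.05 and 6.22 in CCA1-34 early, against 6.28, 6.34 and 6.27 in Col early, and these groups did not overlap. It read 6.12, 6.23 and 6.41 in CCA1-34 late, against 6.15, 6.16 and 6.16 in Col late, where they did overlap. The line difference was -0.15 early (SE 0.0939, 95% interval -0.36 to 0.06) and 0.09 late (-0.11 to 0.30). Of the 4 members besides ACBP6, ACBP4 was the 1 whose early arrays did not overlap between the lines, where 7.76% of all probe sets did not. At the late time it was 0 of the 4, where 10.2% of all probe sets did not overlap.

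ACBP5, the other kelch-motif form, was dim on every array. It lay between 2.08 and 2.45 in CCA1-34 and between 2.24 and 2.37 in Col, and at most 29.2% of probe sets read lower on any array. At this level the line differences of 0.00 early (SE 0.104) and -0.01 late may be those of background, and they are not read as those of the transcript.

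With limma fitted to every probe set, 0 of the 4 members ACBP1, ACBP2, ACBP4 and ACBP5 differed between the lines at an adjusted p under 0.05, at either time. Their lowest unadjusted p was 0.137 early and 0.342 late, and their lowest adjusted p 0.9998 early and 1.0 late. Over all probe sets 1 passed early (0.0044%) and 2 late (0.00879%). ACBP6 is among them, and nothing is read from that, since its values chose the family. At an unadjusted p under 0.05 there were 813 early (3.57%) and 861 late (3.79%). The 95% intervals of ACBP1, ACBP2 and ACBP4 at the single times reached from -0.40 to 0.52, which leaves room for differences of that size in these 3. The interval of ACBP5 is not read as one of its transcript. Averaged over both times, the absolute differences of the 4 were 0.06 or less, below the median of 0.078 over all probe sets.

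The times were compared next within each line. In CCA1-34, which grew at both times, ACBP6 differed between early and late by 0.10 (SE 0.117, 95% interval -0.15 to 0.36, limma adjusted p = 0.9996). Its early arrays, 10.94 to 11.16, overlapped the late ones, 10.72 to 11.05. ACBP1, ACBP2, ACBP4 and ACBP5 differed by -0.01, 0.08, -0.11 and -0.02 in CCA1-34. In CCA1-34 the early and late arrays overlapped for all 5 members, where 6.96% of all probe sets did not overlap.

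In Col, which grew at the early time alone, ACBP6 was 0.23 higher early than late (SE 0.117, 95% interval -0.02 to 0.49, limma adjusted p = 0.900). Its early and late Col arrays did not overlap, although the gap between 3.72 and 3.69 was narrow, and all of these values lay below the array medians. ACBP4 showed the same order in Col, with 6.27 to 6.34 early and 6.15 to 6.16 late (difference 0.14, SE 0.0939, limma adjusted p = 0.907). These 2 of the 5 members did not overlap between the times in Col, where 8.91% of all probe sets did not. With so few members this share is a count and no more. ACBP1, ACBP2 and ACBP5 differed by 0.03, 0.03 and -0.04 in Col, with overlapping arrays.

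No member passed in limma in either line, and the lowest unadjusted p was 0.0713, for ACBP6 in Col. Over all probe sets 0 passed in CCA1-34 (0%) and 1 in Col (0.0044%), with 382 (1.68%) and 1230 (5.41%) at an unadjusted p under 0.05.

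The interaction, taken as the early-minus-late difference of Col minus that of CCA1-34, asked whether the lines differed in their response to time. It was 0.24 for ACBP4 (SE 0.133, 95% interval -0.05 to 0.54), the largest in the family, where CCA1-34 read lower early and Col higher early on average. Its unadjusted limma p was 0.0938 and its adjusted p 1.0. It was 0.13 for ACBP6 (SE 0.165, -0.24 to 0.50), 0.04 for ACBP1, -0.02 for ACBP5 and -0.05 for ACBP2. Limma passed 0 of the 5 members and 0 of all probe sets (0%), of which 465 (2.04%) had an unadjusted p under 0.05.

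**Figure D3:**
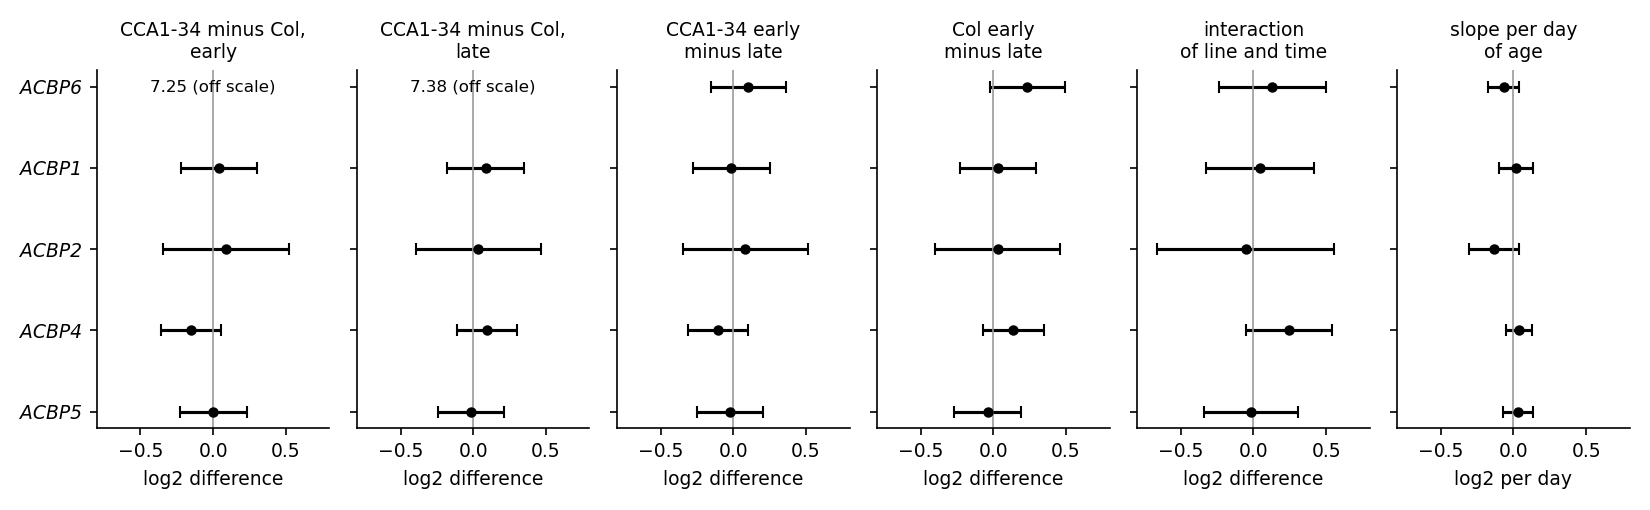
Differences of the 5 measured members in log2 with 95% intervals from the fit over all probe sets, with 1 panel per comparison and log2 per day for the slope over age. Every interval drawn includes 0, and the ACBP6 line differences of 7.25 and 7.38 lie off the scale and are printed as numbers.

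No member's slope over seedling age passed the test. At 5, 6 and 7 days ACBP6 averaged 10.99, 11.07 and 10.84 over the CCA1-34 arrays and 3.71, 3.67 and 3.59 over the Col arrays. The slope over age was -0.07 per day (SE 0.0479, 95% interval -0.17 to 0.04, limma adjusted p = 0.543). The line difference of ACBP6 was present at each of the 3 ages.

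ACBP2 had the steepest slope of the family, -0.14 per day (SE 0.0762, 95% interval -0.31 to 0.04, limma adjusted p = 0.422). It averaged 5.19, 5.26 and 4.94 over the CCA1-34 arrays and 5.10, 5.30 and 4.80 over the Col arrays at 5, 6 and 7 days. The mean of the 5 root markers went with ACBP2 on some arrays and not on others. It was lowest in late replicate 3 of each line, at 4.30 in CCA1-34 and 4.36 in Col, where ACBP2 was also lowest. It was highest in Col late replicate 2, at 5.63, where ACBP2 read its highest value of 5.39. In CCA1-34 the highest root mean was that of early replicate 1, at 5.37, where ACBP2 read 5.05, its second-lowest value in the line. The highest ACBP2 value of CCA1-34, 5.32 in early replicate 2, stood beside a root mean of 4.79. The part of root tissue in these ACBP2 values was not tested.

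ACBP1, ACBP4 and ACBP5 had slopes of 0.02, 0.04 and 0.03 per day. For ACBP1 and ACBP4 the 7-day means were the highest in CCA1-34, at 5.86 and 6.31, and in Col they were 5.63 and 6.22, a difference that was not tested. Over all probe sets 179 slopes passed in limma (0.787%), and 0 of the 5 members were among them.

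Replicates of 4 of the 5 members varied less than those of the median probe set. The within-group SD was 0.086 for ACBP4, and 5.60% of probe sets had a smaller one. It was 0.105 for ACBP5, 0.130 for ACBP6, 0.134 for ACBP1 and 0.254 for ACBP2. The median over all probe sets was 0.201, so that ACBP2 was the 1 measured member above it.

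Genes next to ACBP6 on the chromosome were examined to see whether the line difference extended to them. The nearest 5 genes with a probe set of their own were taken on each side, in the order of NCBI's TAIR10.1 annotation. Next to ACBP6 on one side lies AFH14, a formin of the cytoskeleton, with 3.06 ± 0.25 in CCA1-34 and 3.09 ± 0.28 in Col (SD, n = 6). On the other side lies FRL2, a relative of the flowering regulator FRIGIDA, with 2.73 ± 0.18 in CCA1-34 and 2.75 ± 0.11 in Col (SD, n = 6). Both read below the array medians in both lines.

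Bright neighbours gave the same picture. CYP97A3, a carotenoid hydroxylase 2 genes away, averaged 6.58 ± 0.21 in CCA1-34 and 6.69 ± 0.46 in Col, and the polyamine transporter PUT2, 4 genes away on the other side, 5.92 ± 0.19 in CCA1-34 and 5.98 ± 0.22 in Col (SD, n = 6). The line differences of the 10 neighbours, averaged over both times, ran from -0.16 for NFD3 to 0.21 for ABCG14. In limma 0 of the 10 passed (lowest adjusted p = 0.9985, lowest unadjusted p = 0.250), where 0.022% of all probe sets passed. None of the 10 separated the arrays of the lines, where 0.382% of all probe sets did.

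**Figure D4:**
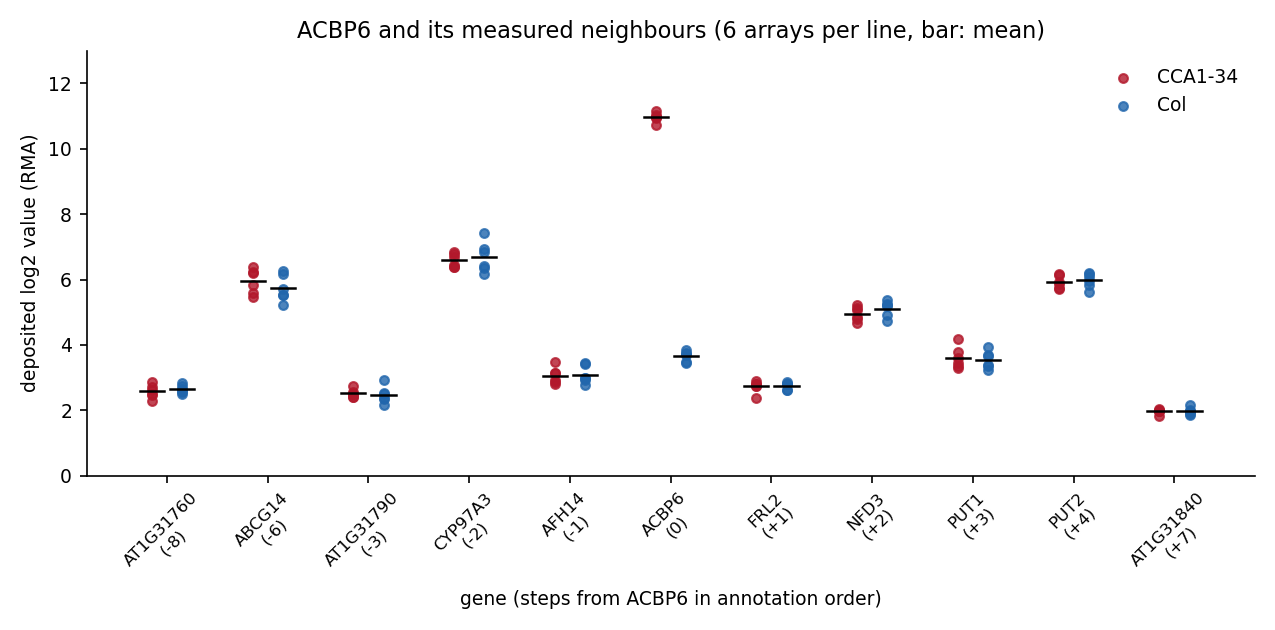
Deposited log2 values of ACBP6 and of the nearest 5 measured genes on each side, in annotation order on the x axis with the number of genes from ACBP6 in brackets, for the 6 arrays of CCA1-34 (red) and the 6 of Col (blue), with a bar at each mean. ACBP6 alone shows separate clouds for the lines, and the 10 neighbours overlap.

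The probe sets most like ACBP6 were found by Pearson's r over the 12 arrays. Since the arrays fall into 2 lines, r here follows the line difference for the most part and is given as a description. CCA1 was the most alike (r = 0.940), followed by AT5G15190 (0.926), the ethylene synthesis gene ACS6 (0.915), EM1 (0.913) and LEA (0.901), of which EM1 and LEA belong to the late embryogenesis abundant proteins. The line difference was 5.34 for CCA1 and between 0.92 and 1.78 for the other 4, against 7.31 for ACBP6. ACS6 lay between 4.68 and 5.19 in CCA1-34 and between 3.79 and 4.51 in Col, and EM1 between 5.89 and 7.17 in CCA1-34 and between 4.36 and 5.63 in Col. For both, every CCA1-34 array read above every Col array, where 0.382% of all probe sets did not overlap between the lines. Since both were picked for likeness to ACBP6, nothing is read from that. The 4 seed markers, which EM1 and LEA are not among, had a median line difference of 0.81 over both times, and its part in the EM1 and LEA values was not tested. The other ACBP members had r between -0.160 for ACBP4 and 0.277 for ACBP1.

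Genes around acyl-CoA metabolism (4 lists) and reported partners and downstream genes of the family (1 list) were examined together. They were 40 genes in all, of which 38 had a probe set of their own (KCS2 and ABF2 had none). In limma 0 of the 38 differed between the lines at either time, where 0.0044% of all probe sets passed early and 0.00879% late. At an unadjusted p under 0.05 there were 2 early, where 3.57% of all probe sets were, and 1 late, where 3.79% were. These were KCS1 (0.74) and KCS20 (0.51) early and KCS1 (0.61) late. The median line difference over the 38 was -0.04 early and 0.02 late, beside -0.01 and -0.01 over all probe sets.

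Plastid release and export of fatty acids was represented by 4 genes. Their line differences, averaged over both times, had a median of -0.06 and were led by the thioesterase gene FATA2 with -0.22 (SE 0.125). The 9 long-chain acyl-CoA synthetases, which activate fatty acids, had a median of -0.09 and ran from -0.56 to 0.06. At the early time all 9 were below 0 (median -0.19), and at the late time 6 of the 9 were above 0 (median 0.07). The early sign was not shared by all 9 without the 2 early arrays that stood apart. LACS3 then read 3.50 and 3.47 in CCA1-34 early, against 3.36 and 3.36 in Col early, whereas Col early replicate 3 read 5.62. The lowest of the 9 over both times was LACS1, a synthetase of wax and cutin formation (difference -0.56, SE 0.235). It lay between 2.67 and 3.56 in CCA1-34 and between 2.83 and 4.23 in Col, and at most 51.7% of probe sets read lower on any array. Its lines overlapped over both times and at the late time. They did not overlap at the early time, where 7.76% of all probe sets did not.

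The 9 genes for acyl transfer and desaturation in the endoplasmic reticulum had a median line difference of 0.00 over both times. The acyltransferase gene LPCAT2, which exchanges acyl groups on phosphatidylcholine, was the lowest with -0.29 (SE 0.126). The 8 measured genes of very-long-chain elongation had a median of 0.18, and 6 of the 8 were above 0. At the early time 7 of the 8 were above 0 (median 0.24) and at the late time 4 of the 8 (median 0.03), with no gene passing at either. KCS1, a condensing enzyme of elongation, read 8.29 to 9.10 in CCA1-34 and 7.41 to 8.47 in Col, a difference of 0.68 (SE 0.18, 95% interval 0.28 to 1.07, limma adjusted p = 0.517). The lines did not overlap for KCS1 within either time, where 7.76% of all probe sets did not early and 10.2% late. They did overlap over both times, and the KCS1 difference was the largest among the 38.

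Reported partners of the family and genes downstream of it formed the fifth list, with 8 measured genes and a median line difference of 0.00. RAP2.3, an ethylene-response factor known to bind ACBP2 and ACBP4, rose with seedling age. At 5, 6 and 7 days it read 6.68, 7.13 and 8.24 in CCA1-34 early and 6.47, 7.63 and 7.94 in CCA1-34 late, and 6.13, 7.28 and 7.46 in Col early and 6.20, 7.28 and 7.56 in Col late. The value was higher at each later age in every group. The slope was 0.71 per day (SE 0.0846, limma adjusted p = 0.0234), and it was the 1 of the 38 that passed for age, where 0.787% of all probe sets did. The call was lost without any 1 of 5 arrays, namely CCA1-34 early replicate 1 (limma adjusted p = 0.0552), CCA1-34 late replicate 1 (0.110), CCA1-34 early replicate 3 (0.0811), CCA1-34 late replicate 3 (0.0692) and Col early replicate 1 (0.0617).

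**Figure D5:**
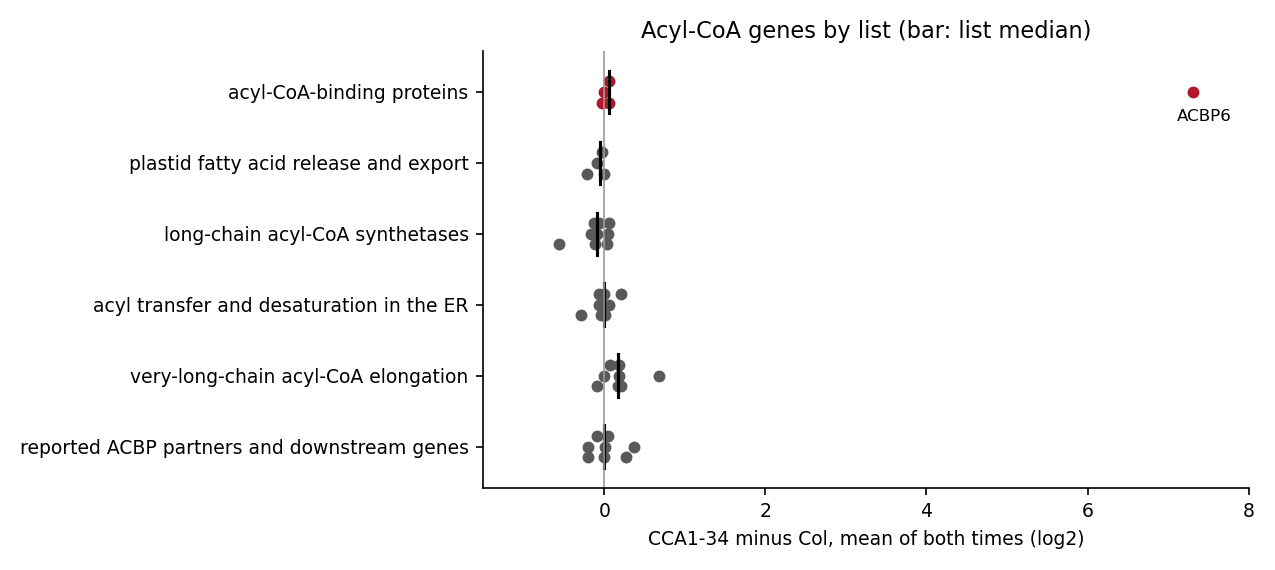
CCA1-34 minus Col in log2, averaged over both times (x axis), for the measured genes of the acyl-CoA-binding family and of 5 lists. Of the lists, 4 hold genes around acyl-CoA metabolism and 1 holds reported partners and downstream genes. Each point is 1 gene, and a bar marks each list's median. ACBP6 stands at 7.31, and all other points lie between -0.56 and 0.68.

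Over time of day the 38 genes went both ways. Their early-minus-late differences ran from -0.57 to 0.38 in CCA1-34 and from -0.91 to 0.77 in Col. The median was 0.03 in CCA1-34 and 0.08 in Col, beside 0.00 and 0.01 over all probe sets, and 0 passed in limma in either line. Of the 5 lists, the widest median was that of the long-chain acyl-CoA synthetases in Col, 0.28, with 0.03 for the same list in CCA1-34. At an unadjusted p under 0.05 there were 0 in CCA1-34, where 1.68% of all probe sets were, and 5 in Col, where 5.41% were. For the interaction 0 passed, and 1 had an unadjusted p under 0.05, where 2.04% of all probe sets did.

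The genes named here for the times were chosen after their values were seen. KCS20, a condensing enzyme of elongation, lay between 6.65 and 6.77 in Col early and between 7.23 and 7.48 in Col late. KCS20 thus differed by -0.62 in Col (SE 0.118, limma adjusted p = 0.371). Its Col arrays did not overlap between the times, where 8.91% of all probe sets did not. In CCA1-34 its early arrays, 7.00 to 7.44, overlapped the late ones, 7.17 to 7.21. The extremes in Col were ATG8E, an autophagy gene, with -0.91 (SE 0.314) and LACS7, a peroxisomal synthetase, with 0.77 (SE 0.318), each with a limma adjusted p of 0.900. ATG8E read 5.90, 6.42 and 5.01 in Col early replicates 1, 2 and 3, so its lowest value came from the array that stood apart. LACS4 and LACS5, both 0.30 higher early than late in Col, complete the 5. LACS5 was dim, between 1.55 and 2.18 in Col, and its highest Col value came from early replicate 3, which stood apart. At this level its difference may be that of background and is not read as that of the transcript. The interaction gene was KCS20, with -0.65 (SE 0.167, limma adjusted p = 1.0).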

How the data were processed

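Per the file headers the authors deposited log2 values from RMA, 1 per probe set, and the submitters' processing notes name RMA alone. Neither the version nor the settings of RMA are stated there. RMA commonly equalises the distributions of the arrays, which would reduce a shift of most transcripts. The combined value table and the single-array files were compared cell by cell, and 0 cells differed.

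The 64 control probe sets among 22810 were dropped. Symbols came from NCBI's TAIR10.1 gene table. No coordinates are printed, because the array files name no build. A linear model with 4 group means was fitted to all 12 arrays in limma 3.58.1 (R 4.3.3), with two-sided moderated tests from eBayes and no intensity trend, leaving 8 residual degrees of freedom. Benjamini-Hochberg adjustment ran over 22746 probe sets, with a threshold of 0.05. Age was fitted as a slope with the group as a factor. Intervals are 95% intervals from the moderated t distribution, with no adjustment for the number of intervals. The script was tested on simulated data. The line difference averaged over both times was added after the data were seen. Alternatives were a replicate block, a filter on dim probe sets, an intensity trend, arrays centred on their medians, the combined table as source, and fits without 1 or 2 arrays.

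The replicate number is the day of sampling in the labels, so same-numbered arrays form a pair. Deviations of same-numbered arrays of different groups from their group means had a median correlation of 0.183 across probe sets (12 of 18 over 0.1), and of differently numbered arrays -0.0741. The deviations of a group sum to 0, so a positive value for the former lowers the latter, which is no separate comparison. The p-values reflect only the spread among these 12 arrays. Within a group this spread includes seedling age and day of sampling, which the main fit does not remove. Since the labels name no separate cultures, it may not include the spread between cultures, and so few arrays limit the precision.

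Members and lists were chosen with earlier results of these data known. Genes of the lists were named where they passed in a comparison, or else where they had the largest line difference of their list. The 5 neighbours on each side, the 5 most alike probe sets and the largest line differences were taken by rank.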

Additional observations from a re-analysis of the deposited data

How the results depend on the processing

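The ACBP6 line difference stayed between 7.18 and 7.29 early and between 7.31 and 7.48 late without any 1 array. No measured member passed in limma under any of the 18 alternatives in the comparisons tested, and the lowest adjusted p of a member was 0.309. With the replicate block it was 0.756, and the block changed no call of a member. The filter on dim probe sets kept 12049 probe sets and 4 of the members, leaving out ACBP5. Of 32 tested member differences, 18 changed sign under at least 1 alternative. Each of these had a size of 0.09 or less, so their direction is not settled, and the cause was not tested. With arrays centred on their medians these were ACBP1 in CCA1-34 over time (0.0217) and over age (-0.0068) and ACBP5 in CCA1-34 over time (0.0129). Without both early arrays that stood apart they were ACBP2 for the interaction (0.0982), between lines early (-0.0633) and over both times (-0.0143), and ACBP5 for the interaction (0.0832) and between lines early (-0.098). Without any 1 array ACBP1 ranged from -0.1031 to 0.0934 in CCA1-34 over time, -0.0302 to 0.123 in Col over time, -0.062 to 0.1358 for the interaction, -0.0211 to 0.1767 between lines late and -0.0276 to 0.0636 over age. ACBP2 ranged from -0.0853 to 0.1963 in CCA1-34 over time, -0.1635 to 0.1955 in Col over time, -0.246 to 0.1144 for the interaction, -0.1578 to 0.2025 between lines late and -0.0348 to 0.1453 over both times. ACBP4 ranged from -0.0674 to 0.0033 between lines over both times. ACBP5 ranged from -0.0964 to 0.0847 in CCA1-34 over time, -0.1232 to 0.0579 for the interaction, -0.0727 to 0.1084 between lines early, -0.0413 to 0.0018 late, -0.0438 to 0.0468 over both times and -0.0114 to 0.055 over age. Counts over all probe sets moved more. Between lines early the count was 1, against 2 with the dim filter, with the trend or with centred arrays, and 1 to 3 without any 1 array. Between lines late it was 2, against 6 with the replicate block, 7 with the dim filter, 6 with the trend, 30 without both early arrays and 1 to 12 without any 1 array. Over time it was 0 in CCA1-34 (0 to 1 without any 1 array) and 1 in Col (13 without both early arrays, 0 to 3 without any 1 array). The interaction count was 0, against 1 without both early arrays. For age it was 179, against 107 with the trend and 0 to 427 without any 1 array. The late CCA1 difference passed with the replicate block (adjusted p = 0.0360), the dim filter (0.0251), the trend (0.0262), without both early arrays (0.00367), without Col early replicate 1 (0.00840) or without Col early replicate 3 (0.00285). The early one passed without Col early replicate 3 (difference 5.57, limma adjusted p = 0.0185).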
